A study of Sus scrofa domesticus with 4 samples.

Results

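Of 10 genes of blood vessel growth and vessel identity, 6 had a probe on the array, and these 6 angiogenic genes (VEGFA, ANGPT1, ANGPT2, HIF1A, ENG and PECAM1) are described here in pig uterine muscle cultured with and without orexin B. They were chosen from RefSeq: a probe was taken when its mRNA accession belonged to a listed pig gene in the Sscrofa11.1 gene table. This gave 10 probes of the 6700 named in that way, and 6 genes of 3029. The other 4 listed genes, FLT1, KDR, TEK and FGF2, had no probe matched in this way and were not analysed here. Explants were thin slices of myometrium, the muscle layer of the uterus, from 4 gilts, Large White x Polish Landrace and 7 to 8 months old, in early pregnancy (gestation day 15 or 16). The treated explants received 10 nM orexin B, a hypothalamic peptide that binds orexin receptors, for 24 h after a preincubation of 2 h, and the untreated explants had the same incubation in the same medium without the peptide. RNA of both was hybridised together on each of 4 Agilent arrays read in a red and a green channel. Orexin B RNA carried the red dye Cy5 on arrays 1 and 3 and the green dye Cy3 on arrays 2 and 4; each array is the replicate of the same number. The labels do not tie an array to a gilt, so p-values measure the spread between the 4 arrays. Both groups were whole slices, which hold vessels, stroma and immune cells beside muscle.

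VEGFA is the main secreted signal that makes endothelial cells divide, migrate and become permeable, and it acts through the receptors FLT1 and KDR. The angiopoietins ANGPT1 and ANGPT2 share the endothelial receptor TEK: ANGPT1 activates it and steadies vessels, whereas ANGPT2, stored in and released by endothelial cells, mostly opposes it and loosens vessels so that they can sprout. HIF1A is the oxygen-sensitive transcription factor subunit that switches on VEGFA when oxygen is low, and its protein is regulated mainly by degradation. ENG (endoglin) is a TGF-beta and BMP co-receptor of dividing endothelium, and PECAM1 (CD31) is an adhesion molecule at endothelial junctions that platelets, monocytes and other leukocytes also carry. In the pig, vessels of the uterus expand around the time the conceptus attaches.

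Ratios are log2 of orexin B over untreated, each followed by limma's moderated standard error (n = 4 arrays). Levels are normalized spot intensities in arbitrary units and are compared only within a probe. Of 43603 probes, 19879 were bright enough to test, among them all 10 member probes. ANGPT1 passed only through the treated channel. In limma's moderated test, 0 of 19879 probes (0%) passed an adjusted p of 0.05, with a smallest adjusted p of 0.596. An unadjusted p under 0.05 was reached by 1534 probes (7.72%), and 856 of these (4.31% of those tested) were higher with orexin B. A plain one-sample test without moderation gave 0 probes after adjustment and 1195 before it. With median centring in place of loess the unadjusted count was 177, 172 higher and 5 lower, against 856 higher and 678 lower with loess. Probes well above background made up between 48.7% and 54.3% of all probes in the treated channel and between 37.6% and 58.2% in the untreated channel. The smooth muscle markers ACTA2, CNN1, DES, SMTN and MYLK were well above background in both channels of all 4 arrays. No spot was saturated, and precision is limited by having 4 arrays.

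As a group, the 6 angiogenic genes lay slightly above 0, and ANGPT2 stood highest. All 6 had a mean above 0 by their brightest probe, with a median of 0.13 beside a median of 0.018 over all tested probes, of which 54.1% had a mean above 0. ANGPT1 is counted among the 6 although it entered the test only through the treated channel. A strict filter, with both channels well above background on all 4 arrays, left 5 genes. Their median was 0.15, beside 0.011 over all probes tested there. Counted over all 10 probes, 9 had a mean above 0 and 1 below. None passed the adjusted threshold, and 1 of 10, that of ANGPT2, had an unadjusted p under 0.05 and was higher, beside backgrounds of 7.72% in either direction and 4.31% higher. All 4 arrays were above 0 for 2 of the 10 probes, beside 8.92% of all tested probes, and all 4 were below 0 for 0 of them, beside 7.08%. The treated and untreated levels did not separate for any of the 10 probes, a separation seen in 1.77% of tested probes. The median of the 6 genes was 0.21, 0.39, 0.13 and 0.058 on arrays 1 to 4.

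**Figure D1:**
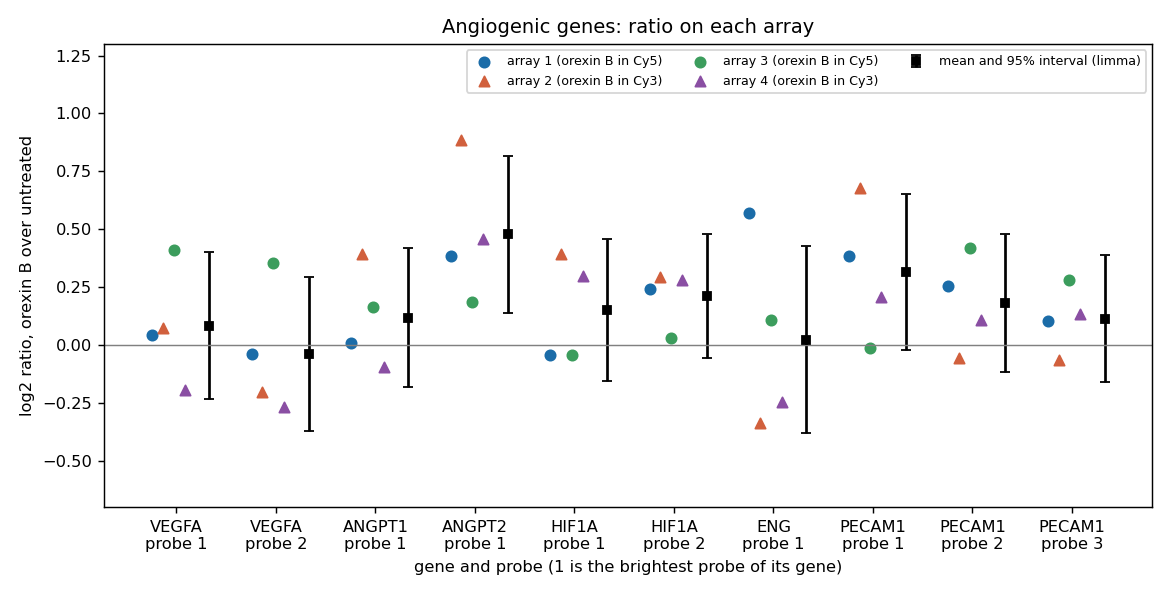
Log2 ratio of orexin B over untreated (vertical axis) for the 10 probes of the 6 angiogenic genes on each of the 4 arrays, circles for orexin B in Cy5 and triangles for orexin B in Cy3, with the mean and its unadjusted 95% interval from limma as black squares and bars. ANGPT2 lies above 0 on all 4 arrays, between 0.19 and 0.88, while the ENG points split by dye orientation.

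ANGPT2 (probe A_72_P185266), the sprouting-associated antagonist of the receptor TEK, was higher with orexin B on every array. Its level was 2817, 5084, 2791 and 2205 in treated explants on arrays 1 to 4, against 2157, 2755, 2450 and 1607 in untreated explants. The treated value was the higher of the pair on each array, but the ranges of the groups overlapped, since untreated explants on arrays 2 and 3 lay above treated explants on array 4. The log2 ratios were 0.39, 0.88, 0.19 and 0.46, a mean of 0.48 ± 0.14 or 1.39-fold, with an unadjusted 95% interval of 1.10-fold to 1.76-fold. This did not pass the threshold (limma adjusted p = 0.596, unadjusted p = 0.0122), and 97.0% of tested probes had a lower ratio. The ratio was 0.34 without replicate 2, which had the largest value. The 2 arrays with treated RNA in Cy5 averaged 0.29 and the 2 with it in Cy3 averaged 0.67. On the slide that held arrays 2, 3 and 4 the mean was 0.51, and array 1, alone on the other slide, gave 0.39. With median centring in place of loess the ratio was 0.41 and its unadjusted p 0.200. With the channels of an array taken as separate samples that p was 0.108.

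ANGPT1 (probe A_72_P441404), the vessel-stabilising agonist of TEK, was a dim probe whose value depended on how dim spots were treated. It was well above background on 4 of 4 arrays in the treated channel and on 1 of 4 in the untreated channel, so the untreated level was not well above background on the other 3 arrays. The measured levels were 300.1, 255.6, 281.9 and 233.4 in treated explants, against 298.2, 194.8, 251.8 and 249.0 in untreated explants. Only array 2 showed a clear gap between the channels, and array 4 ran the other way. The log2 ratio was 0.12 ± 0.13 (limma adjusted p = 0.847), with array values of 0.0093, 0.39, 0.16 and -0.093. Agilent's own processed ratio gave 0.69, with 2.64 on array 2 and 0.17, 0.29 and -0.34 on arrays 1, 3 and 4. Without replicate 2 the ratio was 0.026.

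VEGFA (probes A_72_P414353 and A_72_P441494, the brighter first), the endothelial growth signal, varied far more between arrays than between treated and untreated explants. By its brighter probe, the level was 880.5, 2045, 3721 and 883.8 in treated explants on arrays 1 to 4, against 855.1, 1941, 2798 and 1010 in untreated explants. Array 3 was highest and arrays 1 and 4 lowest in both groups, a span of 4.23-fold among treated and 3.27-fold among untreated explants. The dimmer probe had the same order of high and low arrays, with 402.5, 800.7, 1665 and 415.1 in treated explants against 412.8, 922.5, 1303 and 499.7 in untreated explants. The log2 ratio was 0.084 ± 0.13 by the brighter probe (array values 0.042, 0.075, 0.41 and -0.19) and -0.039 ± 0.14 by the dimmer (-0.037, -0.20, 0.35 and -0.27). Both probes were highest on array 3 and lowest on array 4. The limma adjusted p was 0.90 and 0.961, and the interval of the brighter probe ran from 0.85-fold to 1.32-fold. The brighter probe's ratio was -0.025 without replicate 3.

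**Figure D2:**
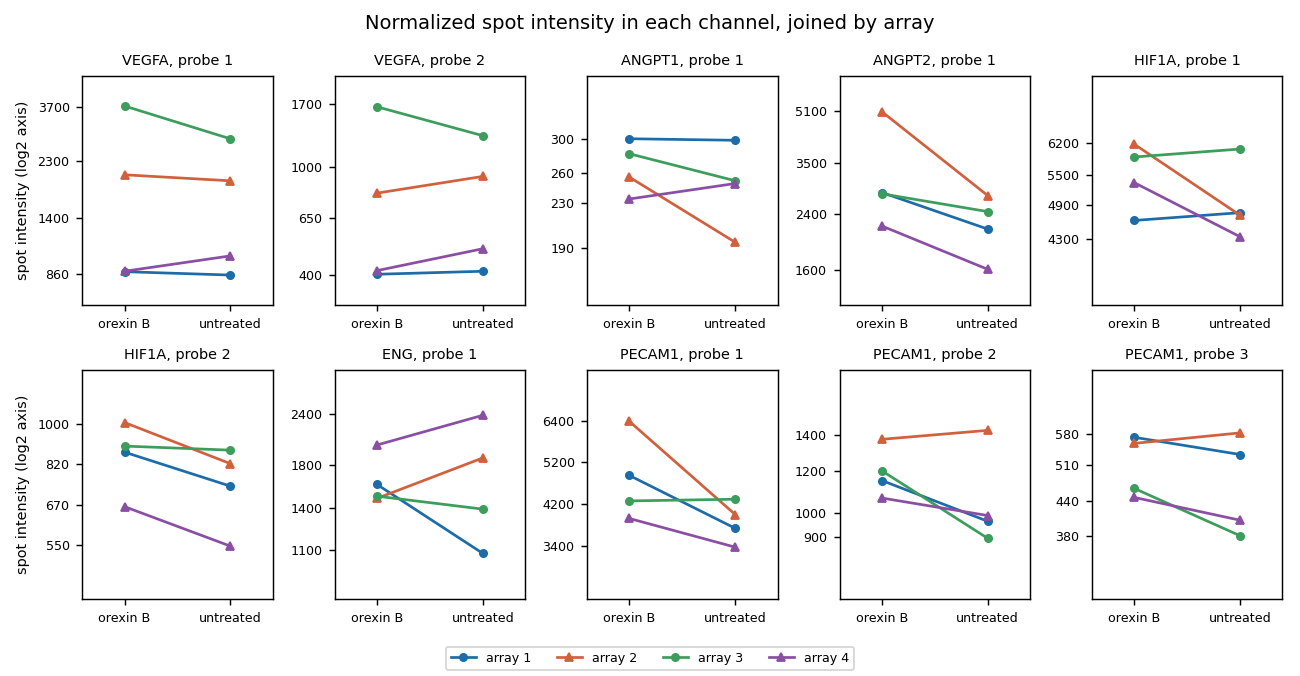
Normalized spot intensity (vertical log2 axes, arbitrary units) of the 10 probes in the orexin B and the untreated channel, joined by a line for each of the 4 arrays; probe 1 is the brightest probe of its gene. The 4 ANGPT2 lines all run down from orexin B to untreated, whereas for VEGFA the arrays differ by up to 4.23-fold and the lines run in both directions.

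HIF1A (probes A_72_P213487 and A_72_P585741), the oxygen-regulated partner of ARNT, had one probe that split by dye orientation and another above 0 on every array. The level by the brighter probe was 4615, 6181, 5887 and 5334 in treated explants, against 4755, 4707, 6069 and 4335 in untreated explants. Treated explants were higher on arrays 2 and 4 only, and the groups overlapped. The log2 ratios were -0.043, 0.39, -0.044 and 0.30, a mean of 0.15 ± 0.13 (limma adjusted p = 0.803) and 0.071 without replicate 2. Its mean was -0.044 over the arrays with treated RNA in Cy5 and 0.35 over those with it in Cy3. The dimmer probe gave 0.24, 0.29, 0.029 and 0.28, a mean of 0.21 ± 0.11 (adjusted p = 0.708), at levels of 870.9, 1009, 897.4 and 664.6 in treated explants against 735.7, 822.6, 879.5 and 546.4 in untreated explants. Its SD over the arrays, 0.12, was among the lowest: 10.8% of tested probes had a smaller one. HIF1A mRNA does not report the HIF1A protein, which was not measured.

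Around HIF1A, 1 of 2 oxygen-sensing genes with a probe was tested. EPAS1 (HIF-2 alpha), the subunit typical of endothelium, had array values of 0.85, 0.40, -0.20 and 0.42, a mean of 0.37 ± 0.18 (limma adjusted p = 0.671). Of 11 tested hypoxia-induced genes, 6 had a mean above 0 and 5 below, with a median of 0.040. None passed the adjusted test in either direction, and 1 of 11, ADM, had an unadjusted p under 0.05, beside 7.72% of all tested probes. ADM (adrenomedullin), a vasodilator peptide induced by hypoxia, had array values of 0.077, 0.44, 0.68 and 1.16, a mean of 0.59 ± 0.18 (limma adjusted p = 0.596). ERO1A, an oxidase of the endoplasmic reticulum, had 0.21 ± 0.11 with all 4 arrays above 0, and P4HA1, a collagen prolyl hydroxylase, had -0.18 ± 0.12 with all 4 below 0 (-0.11 without replicate 4). HK2, counted above 0 among the hypoxia-induced genes, was well above background on 3 of 4 untreated channels. It entered the test only through the treated channel. EPAS1 and HK2 lie outside the rule for named genes.

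ENG (probe A_72_P232262), the endothelial TGF-beta co-receptor, had a mean close to 0 that was made of values of opposite sign. Its level was 1605, 1482, 1500.2 and 2014 in treated explants, against 1079.9, 1869.6, 1393 and 2389 in untreated explants. Treated explants were higher on arrays 1 and 3 and lower on arrays 2 and 4. The log2 ratios were 0.57, -0.34, 0.11 and -0.25, a mean of 0.024 ± 0.17 (limma adjusted p = 0.984, interval 0.77-fold to 1.35-fold). Arrays with treated RNA in Cy5 averaged 0.34, and those with it in Cy3 averaged -0.29. In a fit with dye as a further term, the dye coefficient of ENG was 0.32 ± 0.12 (adjusted p = 0.381) and the orexin B coefficient 0.024 ± 0.12. The sign of the ENG mean turned with median centring (-0.034), with Agilent's processed ratio (-0.023) and without replicate 1 (-0.16).

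Among 13 tested TGF-beta and BMP signalling genes, 11 had a mean above 0 and 2 below, beside 54.1% of all tested probes above 0. Their median was 0.11, and 0 passed the adjusted or the unadjusted threshold in either direction. BMPR2 and TGFBR1, both counted above 0, were well above background on 2 and 3 of 4 untreated channels. Both entered the test only through the treated channel. SMAD1, which carries BMP signals to the nucleus, had 0.19 ± 0.12, and SMAD2, which carries TGF-beta signals, had 0.11 ± 0.11, each with 4 of 4 arrays above 0 (limma adjusted p = 0.737 and 0.824). ID1, an immediate BMP target in endothelium, had its lowest value, -0.72, on array 3 and its highest, 1.31, on array 2. The ligand TGFB3 lay between -2.40 (array 4) and 0.89 (array 2). BMPR2, TGFBR1, ID1 and TGFB3 were named after their values were seen.

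PECAM1 (probes A_72_P218027, A_72_P077376 and A_72_P446708), the junction molecule of endothelium, had a mean above 0 by each of its 3 probes, but the probes ranked the arrays differently. The brightest probe had levels of 4855, 6382, 4268 and 3905 in treated explants, against 3716, 3984, 4305 and 3377 in untreated explants. Treated explants were higher on arrays 1, 2 and 4 and level with untreated on array 3, and the groups overlapped. Its log2 ratios were 0.39, 0.68, -0.012 and 0.21, a mean of 0.32 ± 0.14 or 1.24-fold (limma adjusted p = 0.655, interval 0.99-fold to 1.57-fold). The second probe gave 0.25, -0.056, 0.42 and 0.11, a mean of 0.18 ± 0.13 (adjusted p = 0.758). The dimmest gave 0.10, -0.063, 0.28 and 0.14, a mean of 0.11 ± 0.12 (adjusted p = 0.835). The brightest probe was highest on array 2 and lowest on array 3, where the other 2 probes were lowest and highest, with a gap of up to 0.74 between probes on a single array. The dimmer pair of probes had the same sign on 4 of 4 arrays. Without replicate 2 the brightest probe's ratio was 0.19. With all 4 arrays, the mean over the 3 probes was 0.20.

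Other endothelial markers gave no common direction. Of 8 tested, from 21 listed, 5 had a mean above 0 and 3 below, with a median of 0.069. None passed the adjusted test, and 2, CLDN5 and CDH5, were higher at an unadjusted p under 0.05, beside 4.31% of all tested probes. SELP, counted above 0, had array values of -0.11, 1.96, -1.13 and -0.43 and a mean of 0.071. It was well above background on 3 of 4 untreated channels and entered the test only through the treated channel. CLDN5 (claudin-5), a tight junction protein of endothelium, had array values of 0.53, 0.057, 0.78 and 0.45, a mean of 0.45 ± 0.14 (limma adjusted p = 0.596). CDH5 (VE-cadherin), the adhesion molecule of endothelial junctions, had 0.38, 0.33, 0.044 and 0.49, a mean of 0.31 ± 0.12 (adjusted p = 0.630). THBD (thrombomodulin), an anticoagulant surface protein, had -0.57 ± 0.32 (-0.12 without replicate 4), and VWF, the clotting factor stored together with ANGPT2, had -0.083 ± 0.16 and was named after its values were seen. In bulk tissue, a change in the number of endothelial cells and a change in RNA per cell cannot be told apart.

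On array 2, which had the largest ratio of ANGPT2 and of the brightest PECAM1 probe and the lowest of the other 2 PECAM1 probes, some endothelial markers had higher levels than elsewhere. Of the 8 tested, 5 (CDH5, CLDN5, ICAM2, PROCR and SELP) were highest on array 2 in both channels, and 3 (VWF, THBD and CD34) were not. CD34, a surface protein of endothelial and progenitor cells, was lowest there, at 723.8 in treated and 1125 in untreated explants. The summed level of the 8 markers there was 34586 in treated and 18663 in untreated explants, while on the other arrays it lay between 8853 and 10509 in treated and between 8755 and 11064 in untreated explants. SELP (P-selectin), an adhesion molecule of activated endothelium and platelets that was named after its values were seen, was at 20253 in treated and 5221 in untreated explants on array 2. On the other arrays SELP lay between 232.6 and 417.1 in treated and between 251.8 and 911.6 in untreated explants. Without SELP the sum on array 2 was 14334 in treated and 13442 in untreated explants, while elsewhere it lay between 8436 and 10277 in treated and between 8080.2 and 10643 in untreated explants. The part of these differences in the ANGPT2 and PECAM1 ratios was not tested. Without array 2, ANGPT2 had 0.34 and the brightest PECAM1 probe 0.19, as given above.

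Markers of other cells that carry PECAM1 had means above 0 as well. Macrophage and monocyte markers (8 tested of 11 listed) had 8 of 8 genes above 0 and a median of 0.61, with 0 past the adjusted test and 7 higher at an unadjusted p under 0.05, beside 4.31% of all tested probes. The complement subunit C1QB had 0.98, the Fc receptor chain FCER1G 0.51 and the actin-binding protein AIF1 0.63. The list had summed levels between 6751 and 16272 in treated and between 3973 and 9530 in untreated explants. Of platelet markers (3 tested of 5 listed) 3 of 3 were above 0, with 0 past the adjusted test and a median of 0.078, led by the chemokine PPBP at 1.14 ± 0.20, beside ITGA2B at 0.078 ± 0.12 and GP9 at 0.031 ± 0.11. Their summed levels lay between 1596 and 3204 in treated and between 1344 and 1927 in untreated explants. All 11 of these markers were well above background in the treated channel of 4 arrays, and 9 were so in the untreated channel. PPBP and C1QC were well above background on 3 of 4 untreated channels, so both entered the test only through the treated channel, where they were higher. Their part in the PECAM1 ratio was not tested. The highest macrophage median, 0.85, was on array 3, where the brightest PECAM1 probe was at -0.012 and the other 2 probes were at 0.42 and 0.28.

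The remaining vessel-related lists had medians between 0.062 and 0.11, beside 0.018 over all tested probes, and none had a gene past the adjusted threshold in either direction. At an unadjusted p under 0.05, 2 genes of the other angiogenic factors, ADM and HBEGF, were higher and 1 inhibitor, SERPINF1, was lower. The share over all tested probes was 7.72% in either direction. HBEGF was well above background on 3 of 4 untreated channels, so it entered the test only through the treated channel, where it was higher. Other members of the VEGF, angiopoietin and FGF families and their co-receptors (4 tested of 25 listed) had a median of 0.062, 3 above 0 and 1 below. ANGPTL4, an angiopoietin-like lipase inhibitor, had 0.047 ± 0.14 and ANGPTL2 -0.054 ± 0.30. ANGPTL2, the gene counted below 0, was above 0 on 3 of 4 arrays (0.087, -1.27, 0.75 and 0.21). It was well above background on 3 of 4 treated channels, so it entered the test only through the untreated channel. Notch, ephrin and guidance genes (4 tested of 25) had a median of 0.11, 3 above 0 and 1 below, and the endothelial receptor NOTCH4 had 0.24 ± 0.13. UNC5B, counted above 0, was well above background on 3 of 4 untreated channels and entered the test only through the treated channel. NOTCH4, UNC5B, ANGPTL2 and ANGPTL4 lie outside the rule for named genes.

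Other angiogenic factors and vasoactive genes (16 tested of 36) had a median of 0.067, 8 above 0 and 8 below. CALCRL, the receptor on which adrenomedullin acts, had 0.21 ± 0.11 with 4 of 4 arrays above 0, but was well above background on 2 of 4 untreated channels (limma adjusted p = 0.715). Like ANGPT1, it entered the test only through the treated channel, and Agilent's processed ratio gave 0.72. RAMP2, the accessory protein that makes it an adrenomedullin receptor, had -0.090 ± 0.14, and NOS3, the endothelial nitric oxide synthase, had 0.16 ± 0.13; both were named after their values were seen. Angiogenesis inhibitors (7 tested of 17) had a median of 0.11, 5 above 0 and 2 below. SERPINF1, which encodes the anti-angiogenic protein PEDF, had the lowest mean among the tested genes of the pathway lists. Its array values were -0.29, -0.99, -0.28 and -1.33, a mean of -0.72 ± 0.20 or 1.65-fold lower (limma adjusted p = 0.596), and its 2 other tested probes had the same sign. The values were lower on arrays 2 and 4, which had treated RNA in Cy3 (mean -1.16, against -0.29 in Cy5). The 3 tested fibroblast and stroma markers had array medians of -0.12, -0.81, 0.11 and -0.95. Among them, LUM and COL1A2 were lower on arrays 2 and 4. DCN had -0.59, -0.42, -0.12 and -0.58 on arrays 1 to 4, nearly level on arrays 1 and 4. The summed levels of the 3 markers lay between 46545 and 79720 in treated and between 75194 and 79403 in untreated explants. The part of these markers in the SERPINF1 ratio was not tested.

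**Figure D3:**
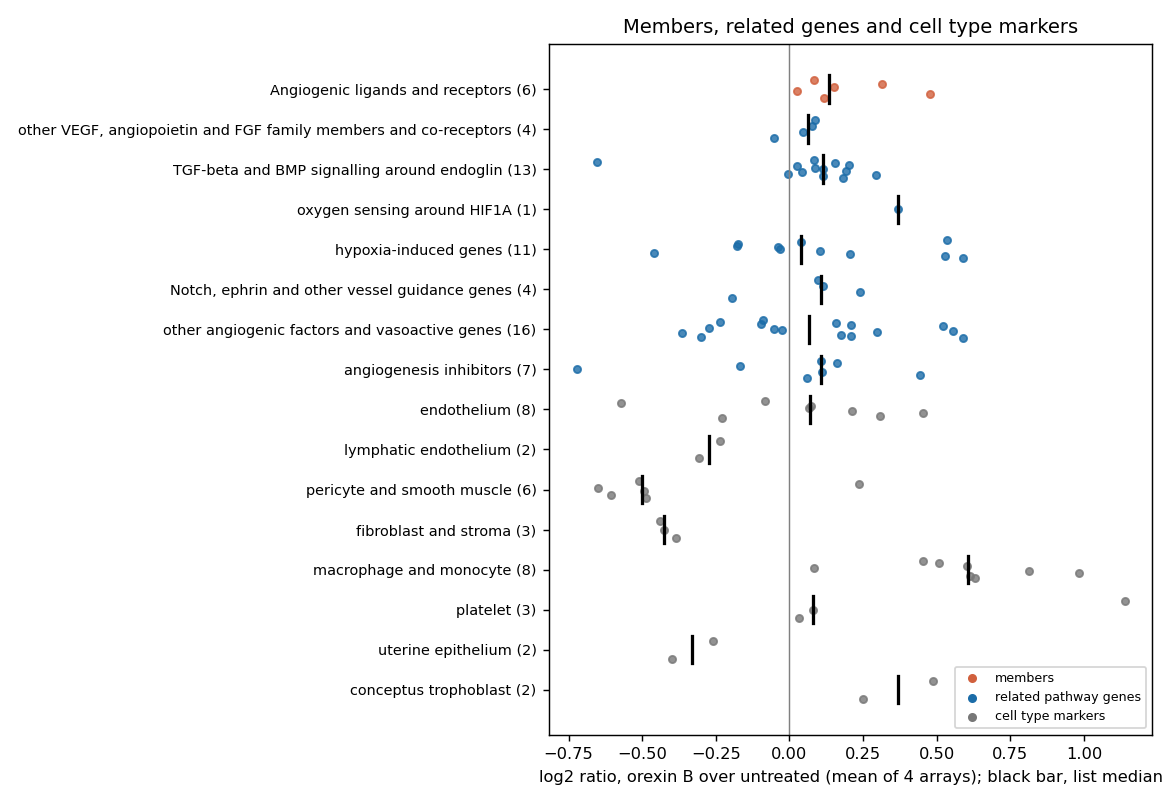
Log2 ratio of orexin B over untreated (horizontal axis, mean of 4 arrays) for each tested gene, 1 row per list with the number of tested genes in brackets; a gene stands by its brightest probe and the black bar is the list median. The 6 angiogenic genes lie between 0.024 and 0.48, while macrophage and monocyte markers have a median of 0.61 and pericyte and smooth muscle markers of -0.50.

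Among cell types of the vessel wall and its surroundings, pericyte and smooth muscle markers had 1 of 6 tested genes above 0. RGS5, the most pericyte-typical of them, was that gene, with array values of 0.42, 1.12, 0.22 and -0.81 and a mean of 0.24 ± 0.28; it was named after its values were seen. CNN1, MYLK and SMTN, muscle proteins, had -0.61 ± 0.26, -0.65 ± 0.28 and -0.51 ± 0.26. The list's median was -0.049, -0.96, 0.26 and -1.32 on arrays 1 to 4, so the low values lay on the arrays with treated RNA in Cy3, and CNN1 averaged 0.020 with it in Cy5 and -1.23 with it in Cy3. Without replicate 4, CNN1 had -0.40, MYLK -0.34 and SMTN -0.21, and without replicate 2 CNN1 had -0.40. DCN, LUM and COL1A2, matrix genes of stroma, had -0.43 ± 0.13, -0.44 ± 0.20 and -0.39 ± 0.25. Without replicate 4, LUM had -0.27 and COL1A2 -0.15, and COL1A2 was above 0 on both arrays with treated RNA in Cy5. Lymphatic endothelium markers (2 tested) were both below 0, PROX1 with -0.24 ± 0.21 and CCL21 with -0.31 ± 0.37, and ran from a median of 0.69 on array 1 to -1.21 on array 4. Uterine epithelium markers (2 tested) had a median of -0.33, EPCAM with -0.40 ± 0.54 and KRT8 with -0.26 ± 0.34. Conceptus trophoblast markers (2 tested of 7 listed, 5 with a probe) had a median of 0.37, IL1B2 with 0.49 ± 0.17 and CYP19A1 with 0.25 ± 0.11. The trophoblast markers IFNG and CYP17A1 were well above background in neither channel of any array, and STAR was too dim to test. A further probe each of IL1B2 and CYP19A1 was also too dim to test. None of these cell type markers passed the adjusted test. At an unadjusted p under 0.05 DCN was lower and IL1B2 higher, beside 7.72% of all tested probes in either direction. No erythroid marker had a probe matched through RefSeq.

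**Figure D4:**
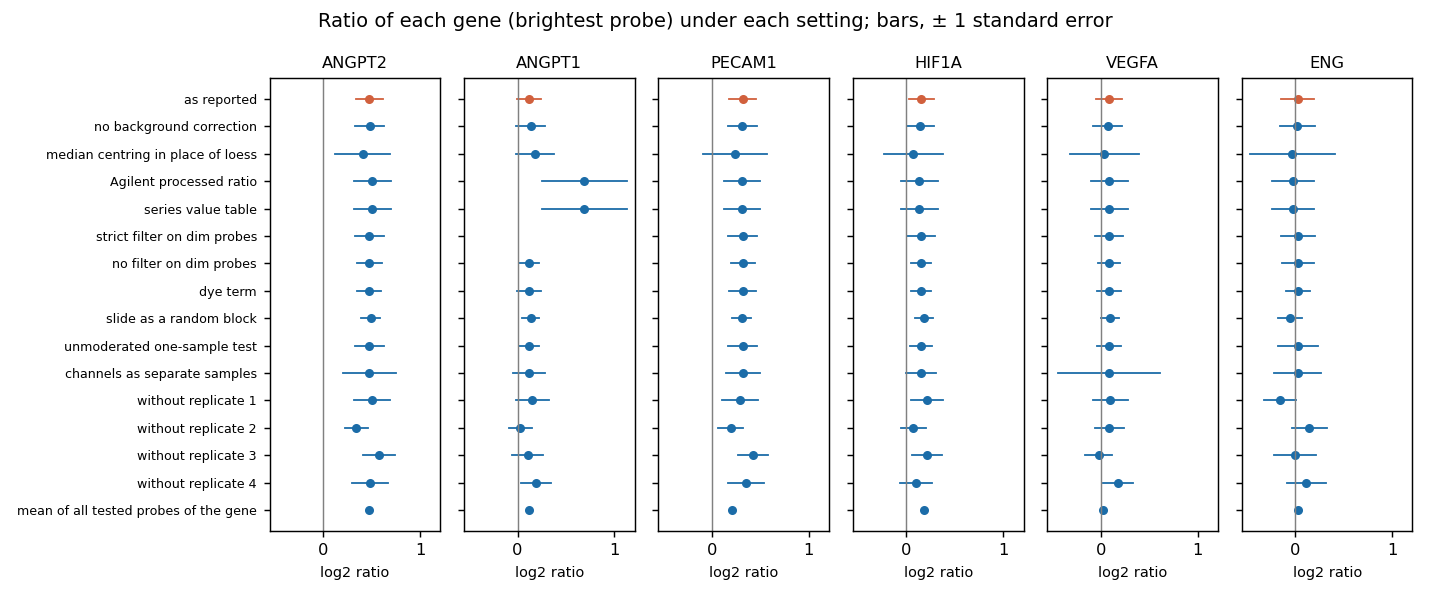
Log2 ratio (horizontal axes) of the 6 angiogenic genes by their brightest probe under each processing setting, the reported one in orange, with bars of 1 standard error either side. ANGPT2 stays between 0.34 and 0.58 in every setting shown, ANGPT1 moves to 0.69 with Agilent's processed ratio and the series table, and ENG lies on either side of 0.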

How the data were processed

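Scans were deposited as spot intensity tables from Agilent Feature Extraction (version 10.7.3.1 in the submitters' processing notes), with median spot and local background brightness per dye. Per the file headers, each table also carries dye-normalized processed intensity and its red-to-green ratio as log10. The deposited series table holds log2 ratios; 100% of them matched each array's processed signals as orexin B over untreated within 0.01 once turned by the dye labels, and its column medians were -0.27, -0.082, -0.20 and -0.094. The protocol text names a single dye orientation, whereas the dye labels alternate and were followed.

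Background was corrected with normexp (offset 50) and arrays were normalized by loess, in R 4.3.3 with limma 3.58.1. Marked outlier spots (31 to 138 per array) were left out. Probes entered the test when 1 of the channels, treated or untreated, was well above background on each of the 4 arrays, with an unmarked spot on at least 3. An intercept model with lmFit and eBayes (residual df 3, prior df 4.1) was fitted to all 19879 probes, with two-sided p-values adjusted by Benjamini-Hochberg, and was tested on simulated data. Channel levels were taken after loess and Aquantile normalization. A gene stands by its brightest tested probe. By the rule for named genes, all members were named, then, smallest unadjusted p first, up to 2 genes in each direction with 4 arrays of the same sign per pathway list and up to 3 genes per marker list. The members, lists and rule were chosen with earlier results of these data known. No coordinates are given, since the files name no genome build. The alternatives were other background correction, centring, filters, Agilent's ratio, the series table, a dye term, slide as a block, unpaired channels, an unmoderated test, the mean over a gene's probes and leaving out each array. Figures used Python 3.11.15 and matplotlib 3.10.9.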

Additional observations from a re-analysis of the deposited data

Results flagged for a closer look

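A single array far from the other 3 was looked for in 54 sets of values (member probes, other genes named by the rule and medians of the gene lists), and 1 was found, where chance gives about 1 in 20 (2.7). It was the endothelial anticoagulant protein THBD, whose log2 ratio was -1.95 on array 4, against -0.23, -0.13 and 0.017 on arrays 1, 2 and 3. No angiogenic member was among them. Without replicate 4 the mean of THBD was -0.12.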

How the results depend on the processing

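No probe passed the adjusted threshold under any other setting of the fit, and no member value did. Of 145 recomputed member values, 136 kept their sign and 9 did not; of 388 for the other named genes, 381 kept it and 7 did not. The median of the 6 genes lay between 0.12 and 0.18 without 1 replicate and was 0.22 with either deposited ratio, Agilent's or that of the series table. The count at an unadjusted p under 0.05, 1534, was 177 with median centring in place of loess (172 higher and 5 lower, against 856 and 678), 2302 with no filter on dim probes, 2382 with a dye term, 4280 with slide as a random block (estimated correlation -0.259) and 494 with no replicate block, that is with the channels of an array as separate samples. Without 1 replicate it ran from 726 to 1922; the lowest was without replicate 4. ENG had -0.034 with median centring, -0.023 with both deposited ratios and -0.057 with slide as a random block. With these deposited ratios, GP9 had -0.00079 and KRT8 0.18. Without 1 replicate, ENG ran from -0.16 to 0.14 (-0.0035 without replicate 3), VEGFA from -0.025 to 0.18, its dimmer probe from -0.17 to 0.037 (0.016 without replicate 2), KRT8 from -0.57 to 0.15, EPCAM from -0.90 to 0.36 and CCL21 from -0.72 to 0.16. The causes were not tested. ANGPT1, CALCRL, PPBP, PROX1 and KRT8 could not be fitted under the strict filter, because their untreated channel was dim on 1 to 3 arrays. Among the genes named by the rule, signal over background limits these 5, ANGPT1 alone among the members. Some genes named outside the rule, such as HBEGF, C1QC and SELP, were also well above background on only 3 of 4 untreated channels. CALCRL had 0.72 with both deposited ratios.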
